A study of Mus musculus with 5 samples.

Results

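Wnt ligands, their receptors and their inhibitors were examined on 5 expression arrays of mouse embryonic stem (ES) cells and cells derived from them. The genes are those whose array symbol begins with Wnt, Fzd, Sfrp or Dkk followed by a digit, together with Lrp5, Lrp6, Axin1, Axin2, Lef1, Tcf7 and Ctnnb1. Wnt3 is left out by that rule. It gave 42 genes of the 16032 named on the array, each read by 1 probe: 18 ligands, 9 receptors, 2 co-receptors, 8 secreted inhibitors and 5 intracellular members. The rule is on names and uses no measured value, though it was written with earlier results of these data known.

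All arrays come from male cells of strain 129 that carry Akt-Mer, a fusion of membrane-targeted (myristoylated) Akt kinase to a hormone-binding domain that lets 4-hydroxytamoxifen switch it on (4OHT, used at 1 µM). The controls carry the transgene too. Line 21 gave 1 array of ES cells without 4OHT, 1 of ES cells with 4OHT, 1 of Akt-spheres and 1 of ES-like cells reverted from the spheres. Line 42 gave 1 array of Akt-spheres. Akt-spheres are colonies that the labels call similar to primordial germ cells. They were induced and expanded with 4OHT on OP9 stromal cells, with 4OHT given from 3 days before induction, and the OP9 cells were removed by a short culture on plastic before analysis. The reverted cells were obtained on mouse embryonic fibroblasts with transient 4OHT, and whether fibroblasts remained in the sample is not stated. Each line is a single ES cell line, and nothing says whether any array had a repeat culture.

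Wnt proteins are secreted lipid-bearing ligands that bind Frizzled receptors (Fzd genes) and the co-receptors Lrp5 and Lrp6. Binding stops a destruction complex built on Axin from degrading beta-catenin (Ctnnb1), which then acts in the nucleus with factors such as Lef1 and Tcf7. Other Wnt signals run through Frizzled without beta-catenin and shape cell polarity and movement. Sfrp proteins bind Wnts outside the cell, and Dkk1 blocks Lrp5 and Lrp6. In mouse ES cells Wnt signalling supports self-renewal, and in the early embryo it drives the primitive streak and prepares the epiblast to form germ cells.

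Values are deposited probe intensities on a linear scale with a median near 50 on each array (49.995 to 50.015). Intensities summed to between 15213653 and 19321075 per array. Genes were compared where every array involved listed them and 1 or more of those arrays put them at or above its 40th percentile, an intensity of 28.6 to 29.3. A gene that reaches it only on the side where it is high has its direction set by that filter, and called members of that kind are named with each comparison. Of the 42 genes, 25 were listed on all 5 arrays and reached it somewhere, and 14 reached it on all 5. The remaining 17 stayed below it everywhere, between 3.43 and 26.2. Members listed per array numbered 37 in ES cells without 4OHT, 39 with 4OHT, 42 in the reverted cells, and 39 and 38 in line 21 and line 42 spheres. Folds below are on the log2(intensity + 1) scale after median centring, and understate the change of dim probes. In bulk RNA, fewer cells of a type and less RNA per cell cannot be told apart.

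The labelled cell types were checked against marker genes. The 12 ES cell markers summed to 90203 to 103547 on the 3 arrays of ES cells and reverted cells (the ES-type arrays) and to 11517 and 16333 on the sphere arrays of lines 21 and 42. Dppa5a alone read 49687 to 58362 on ES-type arrays and 1014 and 6732 in those spheres. limma called 7 of the 12 lower in spheres, beside 1.47% of all genes. Of these, Fgf4 and Tbx3 reached the 40th percentile only on ES-type arrays. Nanog (log2 difference 0.045) and Tfcp2l1 (-0.242) were not among those called. The 8 germ cell markers summed to 4471 to 7824 on ES-type arrays and to 5792 and 14238 in line 21 and line 42 spheres. On every array 7 or 8 of them reached the 40th percentile. Without Dppa3, which read 9198 in line 42 spheres, the other 7 summed to 4300.0 to 6198 on ES-type arrays and to 5569 and 5040 in line 21 and line 42 spheres. Ifitm3 was a large part of that sum, at 2455 to 4110 on ES-type arrays and 2285 and 1609 in the spheres. Over the 8 markers the median log2 difference of spheres from ES-type arrays was 0.993, beside 0.001 over all genes. limma called 0 of the 8. Over both directions 5 had an unadjusted limma p under 0.05, beside 18.9% of all genes. The 24 markers of fibroblasts and stroma summed to 4401 to 5660 on ES-type arrays and to 4760 and 3786 in the spheres. Its dimmer genes included Col1a1 (17.01 to 36.03 over all arrays), Dcn (5.49 to 20.3) and Postn (5.49 to 10.3), and Prrx1 had no value on 2 arrays. Its brighter genes included Vim (567 to 2815), Fn1 (168 to 2106) and Acta2 (62.4 to 606).

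Ligand transcripts were dim in these cells, and several were high in the reverted cells. Of 18 ligands, 11 stayed below the 40th percentile on every array and 3 (Wnt5b, Wnt6 and Wnt11) exceeded it on all 5. Of the 7 that could be compared over the 5 arrays, 4 were highest in reverted cells, beside 18.8% of all genes compared. Of the 4, Wnt4 and Wnt10a reached the 40th percentile only in reverted cells, which put them there, so nothing is read from that count.

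Wnt6, a ligand of embryonic ectoderm and endoderm, read 68.9 in ES cells without 4OHT, 113 with 4OHT, 351 in the reverted cells and 36.2 and 44.7 in line 21 and line 42 spheres. Both sphere arrays lay below all 3 ES-type arrays, and the reverted array lay above every other. Wnt10a, a ligand of skin and tooth development, is the next protein-coding gene to Wnt6 on chromosome 1 in the mouse annotation. It read 15.97 without and 22.7 with 4OHT, 82.8 in the reverted cells and 12.7 in both sphere lines. Only the reverted array exceeded the 40th percentile for Wnt10a.

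Wnt4, needed for kidney and ovary formation, read 14.9 without and 12.8 with 4OHT, 98.8 in reverted cells, 5.05 in line 21 spheres and 19.0 in line 42 spheres. Again only the reverted array was above the 40th percentile. Wnt8a, a ligand of the primitive streak, read 13.7 without and 10.4 with 4OHT, 40.5 in reverted cells, 67.1 in line 21 spheres and 10.1 in line 42 spheres. Its high arrays were the reverted cells and the line 21 spheres they came from, and line 42 spheres were as dim as ES cells with 4OHT. Wnt5b, which mostly signals without beta-catenin, read 48.8 without and 51.8 with 4OHT, 131 in the reverted cells and 91.0 and 127 in line 21 and line 42 spheres. Those 3 derived cultures were above both ES cell arrays.

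**Figure D1:**
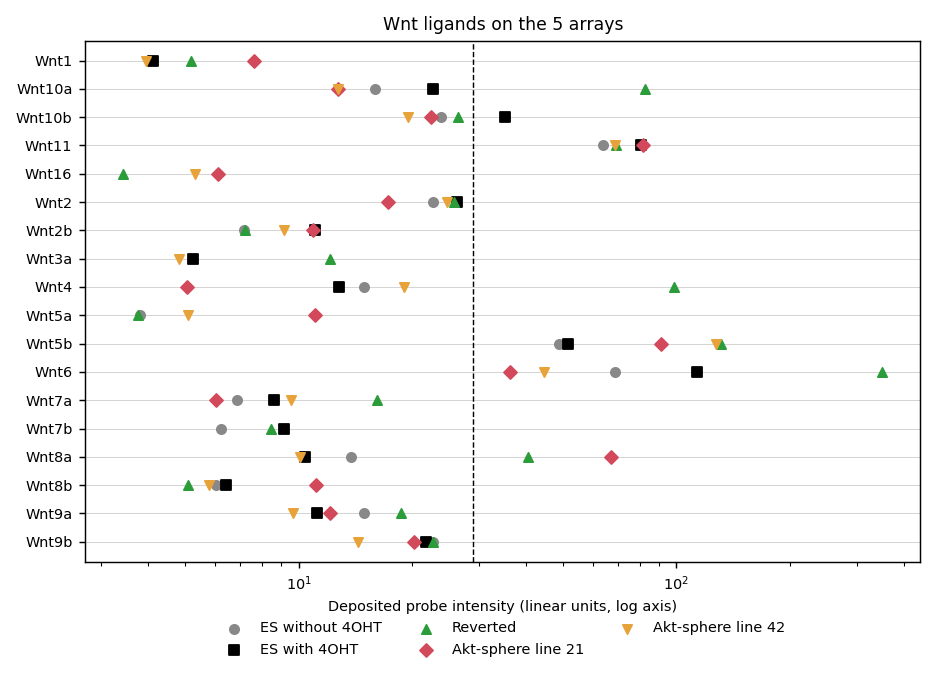
Deposited intensity (log axis) of each Wnt ligand on the 5 arrays, 1 symbol per array, with empty cells not drawn and the dashed line at the mean 40th percentile of the arrays. Wnt6, Wnt10a and Wnt4 stand far to the right in reverted cells (351, 82.8 and 98.8), and 11 ligands stay left of the line on every array.

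Wnt11, a ligand of cell movement, was flat at 64.1 to 81.6. Wnt10b, the neighbour of Wnt1, read 19.5 to 35.1 and passed the 40th percentile in ES cells with 4OHT alone. Among ligands with an empty cell, Wnt1 read 4.12 with 4OHT, 5.2 in the reverted cells and 7.64 and 3.95 in line 21 and line 42 spheres, and had no value without 4OHT. Wnt3a, a classical activator of beta-catenin, read 5.25 with 4OHT, 12.1 in the reverted cells and 4.81 in line 42 spheres. It had no value in ES cells without 4OHT or in line 21 spheres. All these readings are below the 40th percentile.

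Wnt5a, the main ligand of beta-catenin-independent signalling, read 3.81 without 4OHT, 3.76 in reverted cells and 11.0 and 5.10 in line 21 and line 42 spheres, with no value in ES cells with 4OHT. Wnt16 had no value on either ES cell array and read 3.43 in reverted cells and 6.11 and 5.31 in line 21 and line 42 spheres. Wnt7b read 6.24 without and 9.14 with 4OHT and 8.44 in reverted cells, and had no value in either sphere line. The other dim ligands, listed on all arrays, were Wnt2 (17.2 to 26.2), Wnt2b (7.15 to 11.1), Wnt7a (6.04 to 16.1), Wnt8b (5.08 to 11.1), Wnt9a (9.66 to 18.6) and Wnt9b (14.4 to 22.8). For Wnt7a and Wnt9a the reverted array was the highest.

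The promoters of Wnt6 and Wnt4 are shown because these ligands were high in reverted cells and have an entry in the promoter table, where Wnt10a was not matched. They are the 250 bases before the RefSeq start site (GRCm38.p6), written 5′ to 3′ on the gene's strand. Wnt6 lies at chr1:74771642-74771891 (plus strand) and Wnt4 at chr4:137277385-137277634 (plus strand). Capitals mark GC boxes (GGGCGG or its reverse complement CCGCCC), a sequence bound by Sp-family factors.
Wnt6: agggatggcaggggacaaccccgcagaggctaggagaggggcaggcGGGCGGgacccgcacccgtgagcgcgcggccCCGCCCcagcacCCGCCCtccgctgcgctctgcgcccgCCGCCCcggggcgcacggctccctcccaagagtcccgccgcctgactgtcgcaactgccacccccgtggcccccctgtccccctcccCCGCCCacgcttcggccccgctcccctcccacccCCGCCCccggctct
Wnt4: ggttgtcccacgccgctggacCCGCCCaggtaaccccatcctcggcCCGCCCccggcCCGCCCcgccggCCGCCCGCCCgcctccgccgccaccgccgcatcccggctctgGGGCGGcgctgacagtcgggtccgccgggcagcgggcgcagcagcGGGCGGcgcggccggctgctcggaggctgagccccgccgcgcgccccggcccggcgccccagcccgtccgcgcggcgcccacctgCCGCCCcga
Wnt6 held 6 GC boxes and Wnt4 8, of which 1 pair overlaps. Their windows were 79.6% and 85.2% G or C, with 28 and 44 CpG sites. Neither held the TCF/LEF core CTTTGAT or CTTTGAA on either strand. Wnt5b, also highest in reverted cells, has several starts in the promoter table and is not shown. The window of 1 of its starts held a TCF/LEF core.

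Among the 9 Frizzled receptors, Fzd5 was low in both sphere lines, Fzd2 and Fzd8 were each high in a different sphere line, and Fzd1 and Fzd7 were flat. Fzd5, a receptor of early placental and eye development, read 42.7 without and 55.8 with 4OHT, 72.8 in the reverted cells and 21.5 and 17.4 in line 21 and line 42 spheres. Both sphere arrays were below all 3 ES-type arrays and below the 40th percentile. Fzd2 read 36.8 without and 34.0 with 4OHT, 30.4 in reverted cells, 245 in line 21 spheres and 52.7 in line 42 spheres. Both sphere arrays were above the ES-type arrays, line 21 by far the more. Fzd8 read 25.3 without and 17.7 with 4OHT, 15.2 in reverted cells, 35.2 in line 21 spheres and 116 in line 42 spheres. Both were again above the ES-type arrays, here with line 42 the higher.

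Fzd3, a receptor of axon guidance and planar polarity, read 23.6 without and 11.2 with 4OHT, 63.2 in reverted cells, 90.4 in line 21 spheres and 12.1 in line 42 spheres. As with Wnt8a, its high arrays were the line 21 spheres and the cells reverted from them. Fzd6, a hair-patterning receptor, read 20.2 without and 16.4 with 4OHT, 36.5 in the reverted cells and 40.05 and 34.87 in line 21 and line 42 spheres. These 3 derived cultures lay above both ES cell arrays. Fzd4 was dim throughout, at 21.8 without and 12.0 with 4OHT, 10.5 in the reverted cells and 4.71 and 5.52 in line 21 and line 42 spheres. Fzd1 read 34.8 to 37.8, Fzd7 35.6 to 51.2, and Fzd9 5.75 to 8.23 with no value in line 42 spheres. The co-receptor Lrp5 read 58.4 without and 70.4 with 4OHT, 82.3 in the reverted cells and 65.0 and 76.4 in line 21 and line 42 spheres. Lrp6, the co-receptor that ES cells chiefly use, read 28.6 without and 22.9 with 4OHT, 30.4 in the reverted cells and 41.5 and 35.4 in line 21 and line 42 spheres. The sphere and ES-type arrays overlapped for Lrp5 and did not for Lrp6.

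**Figure D2:**
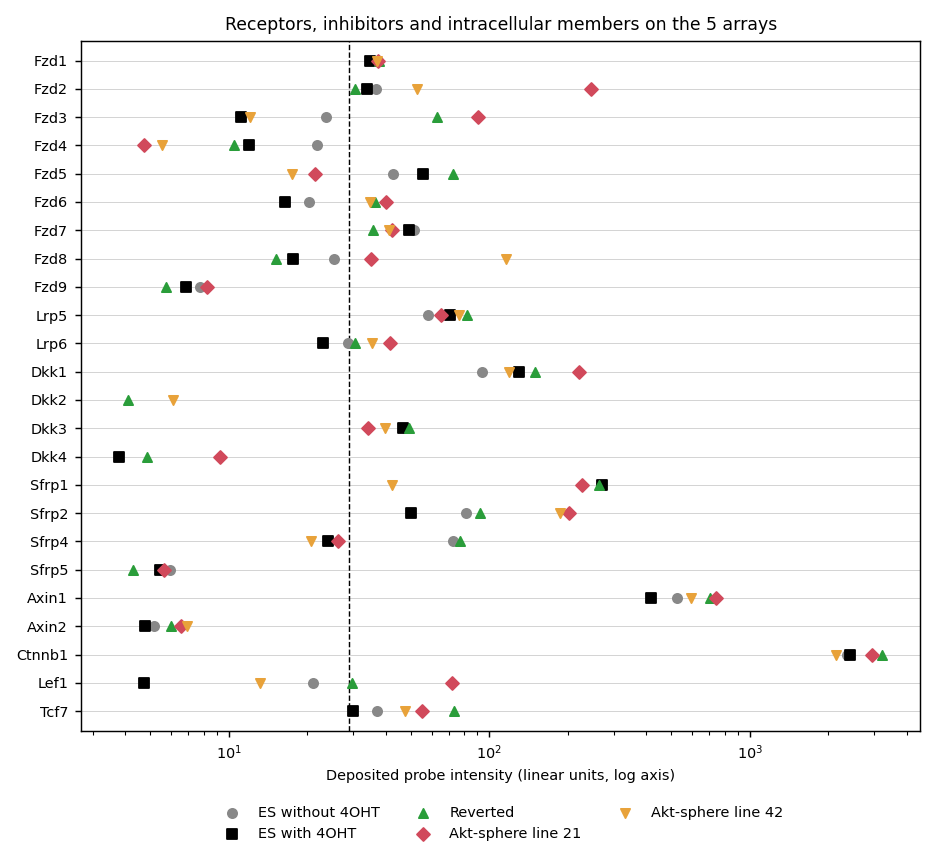
Deposited intensity (log axis) of receptors, co-receptors, inhibitors and intracellular members on the 5 arrays, 1 symbol per array, with empty cells not drawn and the dashed line at the mean 40th percentile. Fzd5 is lowest and Sfrp2 highest in the pair of sphere arrays, while Fzd2 (245), Fzd3 (90.4) and Lef1 (71.6) stand out in line 21 spheres and Sfrp1 is lowest in line 42 spheres (42.4).

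Among 8 secreted inhibitors, Sfrp2 was high and Sfrp4 low in both sphere lines beside ES cells without 4OHT, and Sfrp1 was low in line 42 spheres. Sfrp2 read 81.4 without and 50.3 with 4OHT, 92.2 in the reverted cells and 201 and 186 in line 21 and line 42 spheres. Each sphere array was at least 2-fold above every ES-type array. Sfrp1 read 268 without and 271 with 4OHT, 264 in reverted cells, 227 in line 21 spheres and 42.4 in line 42 spheres. It was flat over the 4 line 21 arrays and low in line 42 alone. Sfrp4 read 72.5 without and 24.0 with 4OHT, 76.9 in the reverted cells and 26.2 and 20.6 in line 21 and line 42 spheres. The 3 low arrays were those of ES cells treated with 4OHT and of spheres, which were expanded in it.

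Dkk1, the inhibitor of Lrp5 and Lrp6 and itself a Wnt target, read 93.9 without and 129.8 with 4OHT, 149 in reverted cells, 221 in line 21 spheres and 119 in line 42 spheres, so the groups overlapped. Dkk3, a divergent family member, read 34.3 to 49.0, lowest in the spheres. Sfrp5 read 5.94 without and 5.45 with 4OHT, 4.27 in the reverted cells and 5.62 in line 21 spheres, with no value in line 42 spheres. Dkk2 had a value only in reverted cells (4.09) and line 42 spheres (6.10), and Dkk4 in ES cells with 4OHT (3.79), reverted cells (4.85) and line 21 spheres (9.23). The last 3 genes are below the 40th percentile wherever they are listed.

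Promoters of Fzd5 and Sfrp2 follow because these were the members whose sphere arrays stood at least 2-fold outside the range of all ES-type arrays, the receptor below and the inhibitor above. That of Dkk1, an inhibitor that is also a Wnt target, is shown for its TCF/LEF core and TATA box (TATAAA). The windows are Fzd5 at chr1:64737751-64738000 (minus strand), Sfrp2 at chr3:83766071-83766320 (plus strand) and Dkk1 at chr19:30549497-30549746 (minus strand), with GC boxes, TATA boxes and TCF/LEF cores in capitals.
Fzd5: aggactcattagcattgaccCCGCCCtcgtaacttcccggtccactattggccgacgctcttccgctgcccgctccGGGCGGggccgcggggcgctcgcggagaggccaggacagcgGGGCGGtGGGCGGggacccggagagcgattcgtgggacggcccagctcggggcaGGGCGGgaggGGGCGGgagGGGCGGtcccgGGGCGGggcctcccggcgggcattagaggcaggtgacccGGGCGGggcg
Sfrp2: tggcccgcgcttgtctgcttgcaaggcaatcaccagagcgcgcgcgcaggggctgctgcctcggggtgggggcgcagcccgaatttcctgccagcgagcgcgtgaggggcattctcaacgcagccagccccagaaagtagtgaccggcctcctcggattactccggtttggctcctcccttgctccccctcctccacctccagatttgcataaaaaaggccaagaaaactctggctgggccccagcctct
Dkk1: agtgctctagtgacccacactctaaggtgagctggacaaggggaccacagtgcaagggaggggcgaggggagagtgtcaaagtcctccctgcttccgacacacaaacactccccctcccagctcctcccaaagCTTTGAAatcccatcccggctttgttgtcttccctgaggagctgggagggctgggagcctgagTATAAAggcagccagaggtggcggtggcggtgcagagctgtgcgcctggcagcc
The Fzd5 window held 9 GC boxes and Sfrp2 none of the 3 motifs. In Dkk1 the TCF/LEF core began 117 bases and the TATA box 54 bases before the start site.

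Windows on 1 chromosome were left out before matching, so they are in none of the totals given here. Of the 42 members, 27 matched the rest of the promoter table, with 35 windows for their alternative starts. A TCF/LEF core was in 3 of these windows (8.57%), those of Dkk1, Wnt11 and 1 start of Wnt5b, against 5.93% of 16084 windows of genes on the array and 7.48% of all 32851. A GC box was in 26 windows (74.3%), against 48.8% of array genes and 32.7% of all, and a TATA box in 7 (20.0%), against 9.43% and 12.4%. The median window of the members was 66.8% G or C with 20 CpG sites, against 57.6% and 12 for array genes. Both strands were searched, and a match describes letters only. The GC and TATA boxes were added after the TCF/LEF core had been searched.

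Of the 5 intracellular members, Ctnnb1 and Axin1 were bright on every array, Axin2 was dim on every array and Lef1 varied. Ctnnb1, which encodes beta-catenin, read 2359 without and 2425 with 4OHT, 3223 in the reverted cells and 2939 and 2138 in line 21 and line 42 spheres. Axin1, the scaffold of the destruction complex, read 523 without and 418 with 4OHT, 704 in the reverted cells and 744 and 595 in line 21 and line 42 spheres. Sphere and ES-type arrays overlapped for both. Axin2, a feedback inhibitor often read as a measure of Wnt activity, was at 5.14 without and 4.78 with 4OHT, 5.99 in the reverted cells and 6.56 and 6.93 in line 21 and line 42 spheres. At these readings, below the 40th percentile on every array, the Axin2 probe gives no usable difference.

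Tcf7, a nuclear partner of beta-catenin, read 36.9 without and 29.9 with 4OHT, 73.0 in the reverted cells and 55.0 and 47.6 in line 21 and line 42 spheres. Lef1, its relative and a Wnt target of the primitive streak, read 21.1 without and 4.73 with 4OHT, 29.8 in reverted cells, 71.6 in line 21 spheres and 13.2 in line 42 spheres. For Lef1 the ES array with 4OHT was the lowest and the line 21 sphere array the highest. Lef1 in line 42 spheres was below ES cells without 4OHT.

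The 2 sphere arrays were set against the 3 ES-type arrays as a group, to find what the sphere lines share beside every ES-like culture. Both sphere arrays lay above all 3 ES-type arrays for Fzd2, Fzd8, Lrp6 and Sfrp2, 4 of 25 members compared, beside 19.1% of all 10589 genes. They lay below for Fzd5, Sfrp1, Dkk3, Wnt6, Wnt10a and Wnt10b, 6 of 25, beside 18.5%. These shares are near those of all genes. Fzd8 reached the 40th percentile only in spheres, and Fzd5, Wnt10a and Wnt10b only on ES-type arrays. At least 2-fold beyond the range on both sphere arrays were Sfrp2 above (1.76% of all genes) and Fzd5 below (2.64%).

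limma called 0 of the 25 members at an adjusted p of 0.05, and 5 (20.0%) had an unadjusted p under 0.05, near the 18.9% of all genes. Over all genes it called 0.963% higher and 1.47% lower. Fzd5 had a log2 difference of -1.48 (SE 0.29, limma adjusted p = 0.0622, 0.0627 to 0.0875 over the processing alternatives), lower in 2 of 2 sphere arrays. Sfrp2 had 1.41 (SE 0.34, limma adjusted p = 0.0993, 0.0866 to 0.103 over the alternatives), higher in 2 of 2. Fzd8 had 1.71 (SE 0.53, limma adjusted p = 0.164), Fzd2 1.73 (SE 0.64, limma adjusted p = 0.221) and Wnt6 -1.77 (SE 0.65, limma adjusted p = 0.222). The median over the members compared was 0.081, beside 0.001 over all genes. The ES-type arrays are of different conditions and the sphere arrays of different lines, so the spread in this fit holds those differences. The reverted cells also came from the line 21 spheres on the other side. Nothing says that the arrays are of separate cultures, so these p-values measure only the spread between these arrays and none between repeat cultures.

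The spread of several members came from 1 sphere line. Without the line 21 sphere array, limma called Sfrp1 lower (log2 -2.65, limma adjusted p = 0.0317), and without that of line 42 it called Fzd2 higher (log2 2.86, limma adjusted p = 0.0320), each as the only member. With 1 sphere array left, that array is assumed to vary as the ES-type arrays do.

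Against ES cells without 4OHT, both sphere lines were 2-fold or more above for Sfrp2 and below for Fzd5 and Sfrp4, of 22 members compared. All genes gave 4.51% above and 6.01% below. Sfrp2 was 2.24-fold higher (log2 1.25 in line 21, 1.08 in line 42), Fzd5 2.26-fold lower (-1.01 and -1.35) and Sfrp4 3.20-fold lower (-1.48 and -1.87). Fzd5 and Sfrp4 reached the 40th percentile only in the ES cells. The Fzd5 difference in line 21 is at the 2-fold limit, and under quantile normalization, no centring, filled empty cells or a pseudocount of 16 Fzd5 was no longer 2-fold in both lines. Nor was Sfrp2 at a pseudocount of 16. As ES cells from line 42 are not analysed here, line and culture cannot be told apart in its spheres.

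Against ES cells with 4OHT, in which the kinase is active on both sides, Fzd6, Fzd8, Lef1 and Sfrp2 were at least 2-fold higher in both lines and Fzd5 and Wnt6 lower, of 22 compared (5.98% and 6.86% of all genes). Lef1 was 5.84-fold higher (log2 3.75 in line 21, 1.34 in line 42), measured against an ES reading of 4.73 near the lowest listed values. Sfrp2 was 3.96-fold higher (2.07 and 1.91), Fzd8 3.64-fold (1.04 and 2.69) and Fzd6 2.30-fold (1.32 and 1.08). Fzd5 was 2.68-fold (-1.25 and -1.59) and Wnt6 2.65-fold lower (-1.53 and -1.29). Fzd6, Fzd8 and Lef1 reached the 40th percentile only in spheres, Lef1 in line 21 alone, and Fzd5 only in the ES cells. A pseudocount of 16 left Sfrp2 and Wnt6 alone as 2-fold in both lines, and Fzd8 was lost under quantile normalization and no centring as well.

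Against reverted cells, Fzd8 and Sfrp2 were at least 2-fold higher in both sphere lines and Wnt4, Wnt6, Wnt10a, Fzd5 and Sfrp4 lower, of 24 compared (4.21% and 5.81% of all genes). Wnt4 was 8.93-fold lower (log2 -3.99 and -2.32), Wnt6 8.40-fold (-3.19 and -2.95) and Wnt10a 6.01-fold (-2.56 and -2.61). Fzd5 was 3.57-fold and Sfrp4 3.16-fold lower, and Fzd8 4.09-fold and Sfrp2 2.13-fold higher. Wnt4, Wnt10a, Fzd5 and Sfrp4 reached the 40th percentile only in reverted cells, and Fzd8 only in spheres. At a pseudocount of 16 neither Fzd8 nor Sfrp2 was 2-fold in both lines, and with filled empty cells Sfrp2 was not. With 1 residual degree of freedom, limma called 0 genes in each of the 3 comparisons of spheres with a single array. Of the members, 3, 4 and 5 had an unadjusted p under 0.05 against ES cells without 4OHT, ES cells with 4OHT and reverted cells, and of all genes 9.41%, 11.6% and 8.83%. These comparisons share the sphere arrays.

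**Figure D3:**
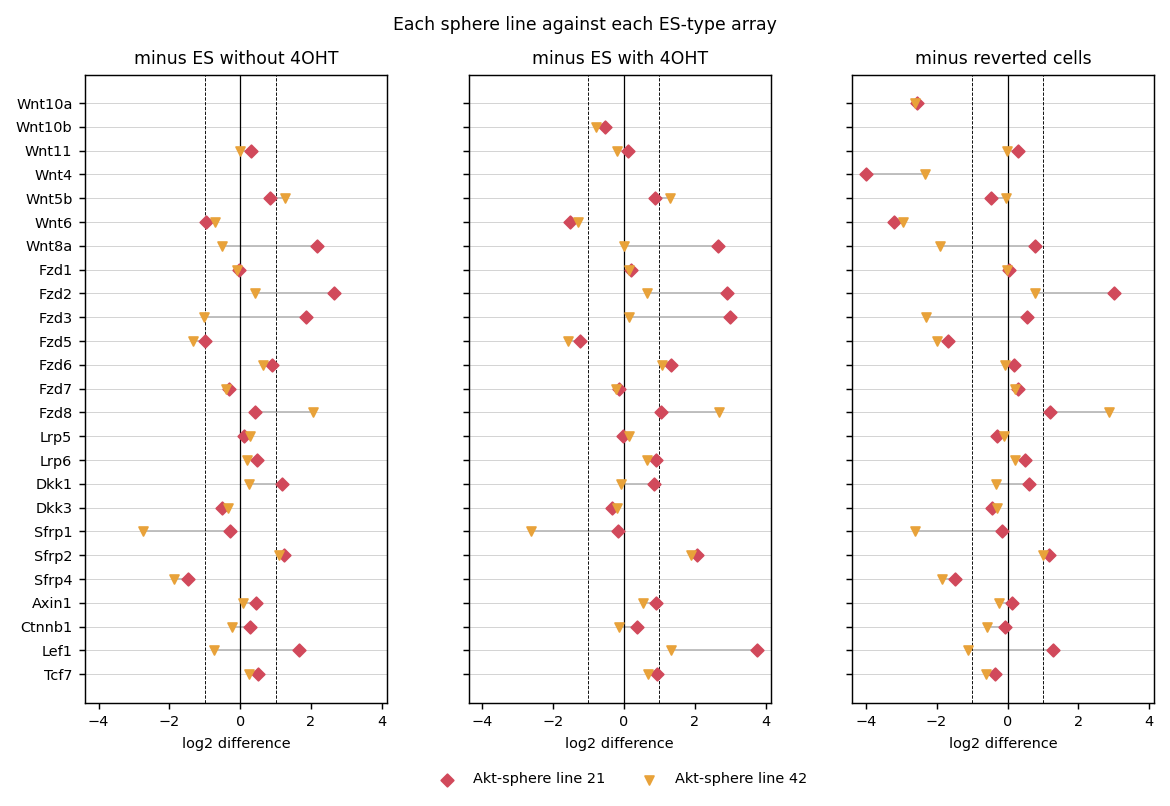
Log2 difference of each sphere line from ES cells without 4OHT, ES cells with 4OHT and reverted cells, for each member compared, with both lines joined and dashed lines at 2-fold. Sfrp2 lies right of 1 and Fzd5 left of -1 for both lines in all 3 panels, while Wnt8a, Fzd2, Fzd3, Lef1 and Sfrp1 show long gaps between lines.

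The effect of kinase activation within ES cell culture was asked by setting line 21 ES cells with 4OHT against those without, 1 array each and no replicate check. Sfrp4 was 3.23-fold lower with 4OHT (72.5 without, 24.0 with), the only 1 of 17 members compared that was 2-fold apart, and it reached the 40th percentile only without 4OHT. Of all genes, 2.56% were 2-fold higher and 2.40% lower, 252 and 236. Without centring the split was 363 and 166, and under quantile normalization 348 and 173. No centring moved the median log2 difference of all genes from -0.025 to 0.111 and quantile normalization to 0.088, and for reverted against ES cells without 4OHT they moved it from 0.002 to 0.102 and 0.106. Sfrp2 had a log2 difference of -0.82, Wnt6 of 0.57, Axin1 of -0.46 and Tcf7 of -0.43. Fzd3 (log2 -1.16) and Lef1 (-2.08) were below the 40th percentile on both arrays and were not compared. With no filter they were the other two members 2-fold lower.

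Reverted cells were set against ES cells without 4OHT, 1 array each, which compares cells that left the sphere state with the starting ES cells. The 6 members at least 2-fold apart, of 23 compared, were all higher in reverted cells: the ligands Wnt4 (5.84-fold), Wnt6 (4.71-fold), Wnt10a (4.61-fold), Wnt8a (2.63-fold) and Wnt5b (2.47-fold) and the receptor Fzd3 (2.43-fold). These include 5 of the 6 ligands compared. Of all genes, 5.18% were 2-fold higher and 6.34% lower (515 and 630), and 634 and 520 under quantile normalization. Wnt4, Wnt10a, Wnt8a and Fzd3 passed the filter only through the reverted array, so they had to be higher there. Among the inhibitors, Sfrp1 differed by -0.12, Sfrp2 by 0.078 and Sfrp4 by -0.015 on the log2 scale. Fzd5 differed by 0.66, Tcf7 by 0.86 and Lef1 by 0.38.

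Reverted cells were then set against the line 21 spheres from which they came. Of 24 members compared, 5 were at least 2-fold higher in reverted cells and 4 lower, beside 9.41% and 7.58% of all genes. The higher were Wnt4 (15.9-fold), Wnt6 (9.15-fold), Wnt10a (5.91-fold), Fzd5 (3.17-fold) and Sfrp4 (2.77-fold). The lower were Fzd2 (8.11-fold), Lef1 (2.45-fold), Fzd8 (2.32-fold) and Sfrp2 (2.25-fold). Of these, Wnt4, Wnt10a, Fzd5 and Sfrp4 reached the 40th percentile only in reverted cells and Fzd8 only in spheres. Wnt8a and Fzd3 were not 2-fold apart between these arrays.

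The sphere lines differed from each other in 3 receptors and 3 other members. In line 42 against line 21 spheres, 1 array each, Fzd3 (7.23-fold), Wnt8a (6.37-fold), Sfrp1 (5.45-fold), Lef1 (5.32-fold) and Fzd2 (4.74-fold) were lower and Fzd8 (3.12-fold) higher, of 20 members compared. Of all genes, 7.87% were 2-fold higher and 7.81% lower. Fzd3, Wnt8a and Lef1 reached the 40th percentile only in line 21 spheres, and the other 3 in both lines. Wnt6, Wnt5b, Sfrp2, Fzd6 and the co-receptors were under 2-fold apart. Line and replicate cannot be told apart in the spheres.

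**Figure D4:**
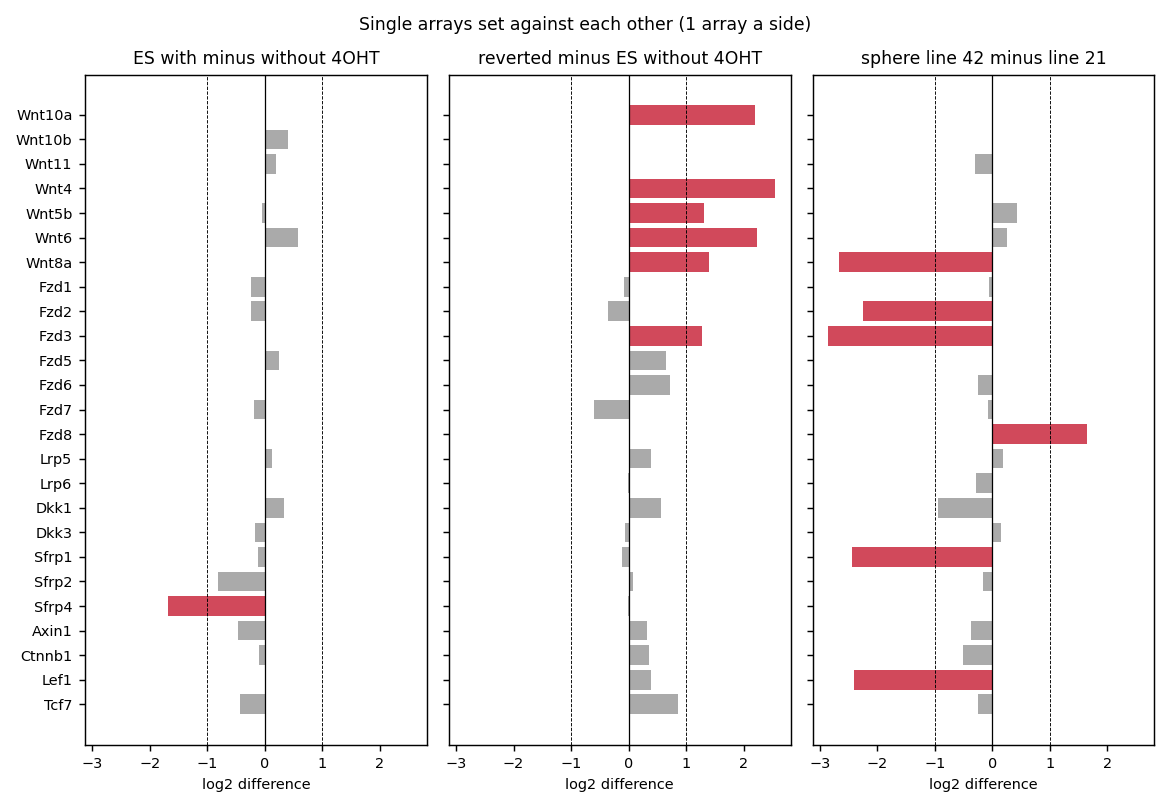
Log2 difference of each member compared between single arrays, in ES cells with minus without 4OHT, reverted cells minus ES cells without 4OHT, and line 42 minus line 21 spheres. Bars in red reach 2-fold (dashed lines): Sfrp4 in the first panel, 5 ligands and Fzd3 in the second, and 5 members lower and Fzd8 higher in the third.

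Markers of other cell types were high on some of the same arrays. T, the primitive streak factor Brachyury and a Wnt target, read 22.6 without and 15.4 with 4OHT, 305 in reverted cells, 193 in line 21 spheres and 19.9 in line 42 spheres, high on the same arrays as Wnt8a and Fzd3. The 12 streak and mesoderm markers summed to 535 without and 527 with 4OHT, 1166 in the reverted cells and 1093 and 694.5 in line 21 and line 42 spheres, and 6, 6, 7, 9 and 6 of them reached the 40th percentile. On the stromal list, S100a4 read 361 in reverted cells and 280 in line 21 spheres against 8.69 to 19.6 elsewhere, Col5a1 329, 310 and, in line 42 spheres, 171 against 69.4 to 86.7 in ES cells, and Mgp 328 in line 21 spheres against 4.43 to 10.1 elsewhere. Other genes of that list ran the other way. Acta2 (476, 415 and 606 on the ES-type arrays, 80.7 and 62.4 in line 21 and line 42 spheres) and Thy1 (464, 331 and 230.1, then 24.8 and 16.1) fell in spheres, each with a limma adjusted p = 0.0146. Tagln read 665 in reverted cells, 82.7 and 148 in ES cells and 16 and 36.01 in spheres, and Vim 567 in reverted cells against 1597 to 2815 elsewhere. Of the 24 stromal markers, 11 reached the 40th percentile in each ES cell array, 16 in reverted cells and 13 and 9 in line 21 and line 42 spheres. Other lists held such genes too. On the neuroectoderm list, Nes and Otx2 were 2-fold higher in reverted cells than in ES cells without 4OHT and Neurod1 and Pax6 lower, of 5 compared. All genes gave 5.18% and 6.34%. On the blood and endothelium list limma called Gata2 higher in spheres (limma adjusted p = 0.0387), 1 of 4 compared. Of the other genes compared there, Lmo2 had a log2 difference of 1.245, Pecam1 of -0.431 and Gata1 of -0.343. On the primitive endoderm list it called Gata6 lower (limma adjusted p = 0.0381), 1 of 5 compared. All genes gave 0.963% higher and 1.47% lower. Thy1, Pax6 and Gata6 reached the 40th percentile only on the high side, so the filter set their direction. The part of these cell types in the Wnt results was not tested.

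The rest of the pathway was read through lists of genes outside the rule. Among Wnt secretion genes, R-spondins and their Lgr receptors, 10 are on the array and 5 were compared. limma called 1, beside 2.44% of all genes. Rspo3, a secreted enhancer of Wnt signalling, rose in spheres (log2 2.44, SE 0.38, limma adjusted p = 0.0399, 0.0350 to 0.0408 over the processing alternatives). Its readings were 44.0 without and 42.7 with 4OHT, 60.8 in the reverted cells and 377 and 188 in line 21 and line 42 spheres, with no overlap. The call was kept without line 42 spheres (limma adjusted p = 0.0354) and lost without ES cells lacking 4OHT (limma adjusted p = 0.175), ES cells with 4OHT (0.131), line 21 spheres (0.0806) or reverted cells (0.0508). Rspo1, its relative, read 72.3, 54.7 and 33.0 on the ES-type arrays and 13.0 and 11.8 in line 21 and line 42 spheres (log2 -1.95, limma adjusted p = 0.0638). Rspo1 passed the filter on dim genes only through the ES-type arrays, so the filter set its direction. Of the 5 genes compared, 3 had an unadjusted limma p under 0.05, beside 18.9% of all genes.

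Of Wls and Porcn, needed to make and release Wnt proteins, Wls was highest in reverted cells and Porcn in line 21 spheres. Wls, the carrier of Wnts to the cell surface, read 134 without and 194 with 4OHT, 343 in the reverted cells and 91.7 and 75.3 in line 21 and line 42 spheres. Porcn, which attaches the lipid, read 122 without and 180.1 with 4OHT, 319 in reverted cells, 373 in line 21 spheres and 78.4 in line 42 spheres. In reverted cells both were at least 2-fold above ES cells without 4OHT and Rspo1 was lower, of 5 compared on that list. All genes gave 5.18% higher and 6.34% lower.

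Of 15 other secreted or membrane inhibitors on the array, 7 were compared and limma called 0. Frzb, an Sfrp relative, read 72.9 in line 21 spheres and 6.29 to 11.3 on the other arrays. The destruction complex and Dishevelled list had 0 of 19 called (median log2 0.059), the nuclear partners 0 of 12 (0.019) and the non-canonical receptors and polarity genes 0 of 14 (0.076), beside a median of 0.001 over all genes. In limma, the counts at an unadjusted p under 0.05 were 1 of 7, 4 of 19, 2 of 12 and 1 of 14 in the order given, beside 18.9% of all genes. In reverted cells against ES cells without 4OHT, 14 genes of the non-canonical list were compared. Of these, Camk2d, Ptk7 and Ryk were at least 2-fold higher and Vangl1 lower. All genes gave 5.18% higher and 6.34% lower. Camk2d and Ptk7 passed the filter only through the reverted array. Ryk, a Wnt-binding receptor, read 488 without 4OHT and 1446 in reverted cells, and Vangl1 read 314 and 142.

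Among 30 Wnt target genes on the array, 25 were compared with the ES-type arrays and limma called Myc, a growth regulator, lower and none higher (log2 -2.57, SE 0.31, limma adjusted p = 0.0246). Of the 25, 5 had an unadjusted limma p under 0.05, beside 18.9% of all genes. Myc read 296, 190 and 194 on the ES-type arrays and 38.2 and 34.8 in line 21 and line 42 spheres. Its call was kept without the reverted array (limma adjusted p = 0.0351) and lost without any 1 of the other 4 (0.0660 to 0.0872). The list's median was 0.28. In reverted cells against ES cells without 4OHT, 7 targets were at least 2-fold higher and 0 lower, of 25: T, Msx1, Msx2, Tnfrsf19, Efnb1, Fosl1 and Fst. All genes gave 5.18% and 6.34%, and T, Msx1, Efnb1 and Fosl1 reached the 40th percentile only in reverted cells. In line 42 against line 21 spheres, 6 were lower (T, Msx1, Msx2, Efnb1, Fst and Lef1) and Notum higher, of 24, beside 7.81% and 7.87% of all genes. T and Lef1 reached it only in line 21. Tnfrsf19, a receptor, read 68.9 without and 53.3 with 4OHT, 327 in the reverted cells and 430.1 and 318 in line 21 and line 42 spheres. Of other targets, Cdx1 read 110 to 209, Cdx2 160.0 to 263 and Nkd1, a feedback inhibitor, 35.2 to 121, while Lgr5 stayed at 4.31 to 7.52. This list holds Axin2, Lef1, Tcf7 and Dkk1 as well.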

How the data were processed

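The deposited values are probe intensities on a linear scale, 1 value per probe and array, from Cy5-labelled RNA on Toray arrays per the labels' protocols. No source used here gives the scanner or the authors' normalization, and the number of arrays limits the precision. Each array holds 22871 probes, of which 1392 to 2084 were empty. Of these probes 16264 had 1 gene symbol, none several and 6607 none. The 42 member symbols are current in RefSeq (GRCm38.p6, used for names and promoters).

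Values were taken as log2(intensity + 1), with the array's median over the 18884 probes that all 5 arrays list subtracted. The brightest probe stood for a gene with several. The filter on dim genes was the 40th percentile. Spheres against the 3 ES-type arrays were fitted with limma 3.58.1 in R 4.3.3 (3 residual degrees of freedom) with Benjamini-Hochberg adjustment over all genes tested, tested on simulated data. Comparisons with a single array used a 2-fold limit, in both lines for spheres. A fit of 4 groups had 1 residual degree of freedom.

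Values on every array were to be given for Lrp5, Lrp6, the intracellular members, and members with an empty cell or at least a 4-fold range that reached the 40th percentile. Other genes could be named if limma called them, or if 2-fold from ES cells with 4OHT in both lines or 4-fold between single arrays. Not every gene that met this is named. Wnt5b, Sfrp4, Fzd4, Fzd6, Dkk1, Wls, Ryk, the markers and the listed genes named beside their counts were added after their values were seen. The members and gene lists were chosen with earlier results of these data known. Alternatives were quantile normalization, no centring, a pseudocount of 16, no filter, a 60th percentile filter, the mean of a gene's probes, filled empty cells, limma with an intensity trend and leaving out each array.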

Additional observations from a re-analysis of the deposited data

Results flagged for a closer look

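Fzd3 stood apart from ES cells without 4OHT in opposite directions in the sphere lines, with a log2 difference of 1.84 in line 21 spheres and -1.01 in line 42 spheres, 1 array each. The difference between the lines was not tested. Fzd3 in line 42 spheres and in ES cells without 4OHT was below the 40th percentile.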

How the results depend on the processing

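Counts of members are given over both directions. A pseudocount of 16 took spheres against ES cells without 4OHT from 3 members to 1 and against ES cells with 4OHT from 6 to 2. A 60th percentile filter gave 1 and 3 there, 4 in place of 7 against reverted cells, 0 in place of 1 for 4OHT in ES cells, 3 in place of 6 for reverted against ES cells, and 3 in place of 6 for line 42 against line 21. Having no filter gave 3 for 4OHT in ES cells. Leaving out each array gave 0 to 1 members for spheres against the 3 ES-type arrays. Leaving out a sphere line gave 6 to 8 against ES cells without 4OHT, 7 to 9 with 4OHT and 9 to 11 against reverted cells, since 1 line then sets the call. Over all genes, limma called 258 against the ES-type arrays, 0 without ES cells lacking 4OHT, 32 without ES cells with 4OHT, 284 without reverted cells, and 148 and 98 without line 21 and line 42 spheres. Over 7 settings, the 29 calls of single members gave 203 values, of which 172 kept their call, 16 lost it (10 at a pseudocount of 16), 0 reversed and 15 could not be compared because the 60th percentile filter removed them. At a pseudocount of 16 the members higher in spheres than in reverted cells went from 2 to 0. No paired analysis by line was possible because line 42 gave a sphere array only. Axin2 and 16 other members stayed below the 40th percentile on every array, which limits what can be read from them. The rule by which cells were left empty is not given.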
